A study of Caenorhabditis elegans with 9 samples.

Results

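The mitochondrial DNA (MtDNA) of Caenorhabditis elegans carries 36 annotated genes, and all 36 were among the 46748 genes of the count table. They were chosen by position, as the rows whose gene lies on MtDNA in the WBcel235 annotation (Ensembl 115). There were 12 protein-coding genes, 2 ribosomal RNA (rRNA) genes and 22 transfer RNA (tRNA) genes, and every one was annotated as a single exon on the plus strand. Of these, 13 held enough counts to be tested, namely 11 messenger RNAs (mRNAs) and both rRNAs. ND4L and the 22 tRNA genes did not pass the filter on low counts and are described by their counts.

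The 9 libraries were made from whole worms, hermaphrodites of N2, the standard wild-type strain, aged 5 days. Each of 3 RNA interference (RNAi) groups held 3 libraries. Controls received L4440, the empty vector used for RNAi by feeding. A second group received RNAi of B0395.3, a gene of the carnitine acyltransferase family, and the last received RNAi of H28O16.1, the sequence name of atp-1, whose product is subunit alpha in the catalytic head of the mitochondrial ATP synthase. Whether the libraries in a group stem from separate cultures is not stated in the labels, so a p-value here reflects library-to-library spread that may be purely technical.

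As background, mitochondria keep a small circular genome that encodes a few core subunits of the respiratory chain and of ATP synthase, along with the rRNAs and tRNAs that translate them inside the organelle. All other subunits, the RNA polymerase and the ribosomal proteins are encoded in the nucleus and imported. Mitochondrial genes are transcribed into long joined transcripts that are then cut apart, and in the adult hermaphrodite most MtDNA copies lie in the germ line.

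The targeted genes were read first. Levels are CPM, a gene's count relative to the TMM-scaled size of its library, and those of atp-1 were 1966, 2003 and 1864 in L4440 and 69.7, 66.9 and 75.4 in H28O16.1, with 1766, 1810 and 1710 in B0395.3. CPM of B0395.3 were 32.96, 35.6 and 32.3 in L4440, 12.5, 16.5 and 12.8 under its own RNAi and 24.7, 23.6 and 28.4 under H28O16.1 RNAi. Each target was lowest in the group that carries its name. Libraries held 31236614 to 40990685 counts. Between libraries of a group, the chi-square of the counts per degree of freedom was 2.58 to 17.1, so no pair agreed within sampling noise, and the third H28O16.1 library differed most from its partners (12.5 and 17.1).

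MtDNA mRNA took a smaller part of the library under H28O16.1 RNAi, while MtDNA rRNA took a larger one. The 12 mRNAs made up 0.631%, 0.640% and 0.658% of all counts in L4440, 0.615%, 0.615% and 0.623% in B0395.3 and 0.410%, 0.392% and 0.290% in H28O16.1. The 2 rRNAs made up 0.00803%, 0.00778% and 0.00792% in L4440, 0.00710%, 0.00686% and 0.00721% in B0395.3 and 0.0167%, 0.0156% and 0.0111% in H28O16.1. No H28O16.1 library overlapped a library of either other group on these shares, and B0395.3 lay just under L4440 on both. In bulk RNA of whole worms, fewer cells or mitochondria of a kind and less RNA in each cannot be told apart.

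Within a library, the ratio of MtDNA rRNA to MtDNA mRNA counts was highest under H28O16.1 RNAi. There were 1.27, 1.22 and 1.204 rRNA counts per 100 MtDNA mRNA counts in L4440 and 1.153, 1.12 and 1.16 in B0395.3, against 4.08, 3.98 and 3.82 in H28O16.1. The group means were 1.23 ± 0.0359, 1.14 ± 0.0234 and 3.96 ± 0.132 (SD, n = 3). H28O16.1 replicate 3, which had the lowest level of its group for all 11 tested mRNAs and both rRNAs, lay near the other 2 libraries on this ratio. These are shares and ratios over the members and were not tested.

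**Figure D1:**
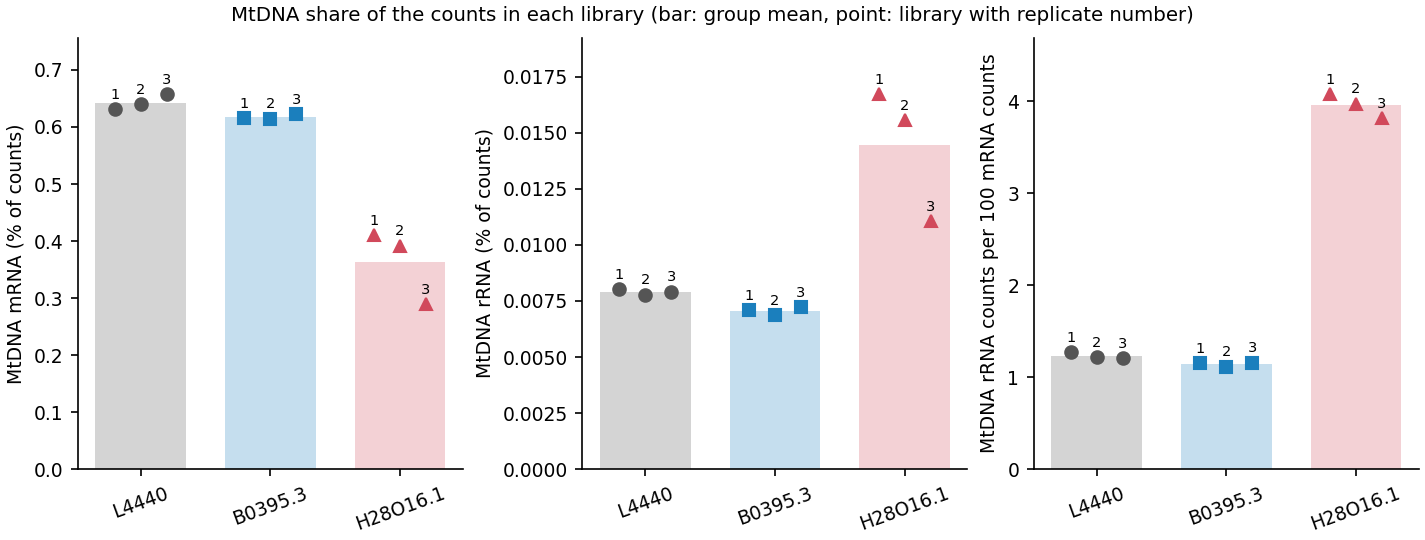
MtDNA share of the counts in each library: mRNA as % of all counts (left), rRNA as % of all counts (middle) and rRNA counts per 100 MtDNA mRNA counts (right). Bars are group means and points are libraries with their replicate number. The 3 H28O16.1 libraries lie at 0.290% to 0.410% for mRNA, below every other library, and at 3.82 to 4.08 rRNA counts per 100 mRNA counts, above every other library.

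Levels of the members differed widely from each other in the control worms. Per kilobase of gene, COX3 (1460 ± 55.1 CPM per kilobase, SD, n = 3) and COX1 (1458 ± 74.6) were the highest in L4440, and their libraries overlapped. COX2 at 1234 ± 51.9, ATP6 at 1044.5 ± 16.99 and CYTB at 777 ± 16.13 CPM per kilobase followed, then ND1 at 274 ± 5.77, ND4 at 207 ± 5.38 and ND5 at 166 ± 2.74. COX3 ranked 76 and ND5 777 on this scale among the 14519 tested genes of the worm that have a length in the annotation.

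Some genes of complex I stood far lower, although they lie between abundant ones. ND2 had 4.27 ± 0.123 CPM per kilobase, ND6 had 3.71 ± 0.116 and ND3 had 3.50 ± 0.503 (SD, n = 3), with ND6 and ND3 overlapping, and ND4L had 0.679 ± 0.131. COX3 was 2151-fold above ND4L per kilobase. The small-subunit rRNA (s-rRNA) stood at 83.5 ± 1.07 and the large-subunit rRNA (l-rRNA) at 24.3 ± 0.343 CPM per kilobase in L4440. The library kit selects poly(A) RNA, per the labels' protocols, so rRNA and tRNA values count only what came through that selection. The same holds for the MtDNA mRNA values. Whether the part that came through differed between genes or between groups was not tested.

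**Figure D2:**
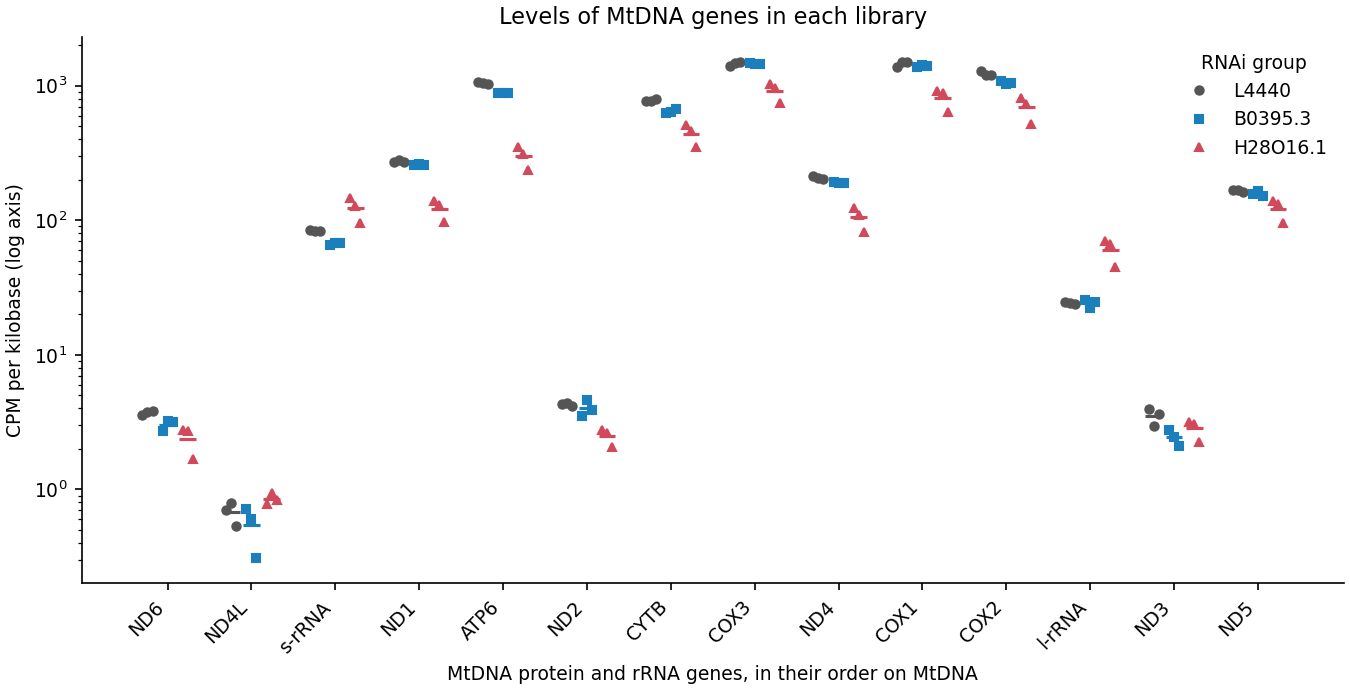
CPM per kilobase of gene (log axis) of the 12 protein genes and 2 rRNA genes in each of the 9 libraries, in their order on MtDNA, with a dash at each group mean. COX3 and COX1 are highest and ND4L lowest, and H28O16.1 libraries lie below L4440 for 10 of the mRNAs and above it for both rRNAs.

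H28O16.1 RNAi against L4440 asks how loss of atp-1 mRNA went with the transcripts of the mitochondrial genome. Of the 11 tested mRNAs, 10 fell and 0 rose, and both rRNAs rose. The same 10 mRNAs lay lower, and the same 2 rRNAs higher, with no overlap between the 3 libraries of each group. Among all 14622 tested genes, 31.2% were called lower and 26.3% higher in this comparison, and 32.8% lay lower and 28.6% higher without overlap. The median log2 fold change of the 11 mRNAs was -0.82, beside -0.0042 over all tested genes. Without H28O16.1 replicate 3, the same 12 members were called, with ATP6 at -1.66 and the l-rRNA gene at 1.496. Calls are from edgeR's quasi-likelihood test at a Benjamini-Hochberg adjusted p under 0.05 over all tested genes.

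ATP6 (WBGene00010960, MtDNA 2634 to 3235) encodes subunit a of the membrane part of ATP synthase, the enzyme to which the atp-1 product also belongs. ATP6 stood at 639, 628 and 619 CPM in L4440, at 534, 535 and 531 in B0395.3 and at 209, 189 and 141.9 in H28O16.1. All H28O16.1 libraries were far below both other groups, and all B0395.3 libraries were below L4440. Its fall in H28O16.1 was the largest among the members, to 28.6% of the L4440 mean (log2 fold change -1.81, SE 0.10, edgeR adjusted p = 5.73e-09).

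The catalytic core of cytochrome c oxidase, complex IV, is encoded by COX1 (WBGene00010964, 7827 to 9428), COX2 (WBGene00010965, 9649 to 10348) and COX3 (WBGene00010962, 5678 to 6449). COX1 stood at 2197, 2398 and 2410 CPM in L4440, at 2189, 2274 and 2249 in B0395.3 and at 1475, 1406 and 1027 in H28O16.1. COX2 stood at 906, 840 and 845 CPM, at 756, 725 and 734, and at 570, 513 and 366 in the same order. COX3 stood at 1082, 1133 and 1167 CPM, at 1130, 1117 and 1116, and at 796, 747 and 574. For each of these genes the H28O16.1 libraries were below all others, with replicate 3 lowest. The log2 fold changes against L4440 were -0.84 (SE 0.10) for COX1, -0.84 (SE 0.11) for COX2 and -0.68 (SE 0.09) for COX3. Their edgeR adjusted p-values were 7.78e-06, 2.52e-05 and 1.71e-05.

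CYTB (WBGene00000829, 4504 to 5621) encodes cytochrome b, the one mitochondrially encoded subunit of complex III. It stood at 863, 854 and 889 CPM in L4440, at 696, 716 and 757 in B0395.3 and at 568, 513 and 393 in H28O16.1. The 3 groups did not overlap and lay in that order. The fall in H28O16.1 was to 56.6% of L4440 (log2 fold change -0.82, SE 0.09, edgeR adjusted p = 6.36e-06).

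Complex I, the NADH dehydrogenase, takes the other 7 protein genes. ND1 (WBGene00010959, 1763 to 2635) stood at 238, 245 and 235.10 CPM in L4440, at 226, 228 and 223 in B0395.3 and at 122, 113 and 84.8 in H28O16.1. ND4 (WBGene00010963, 6506 to 7808) stood at 277, 268 and 264 CPM, at 250, 246 and 247, and at 162, 144 and 107. ND5 (WBGene00010967, 11691 to 13272) stood at 265, 264 and 257 CPM, at 248, 261 and 240, and at 219, 208 and 151. In each case every H28O16.1 library was below every library of the other groups, but the gap was wide for ND1 and narrow for ND5. The log2 fold changes against L4440 were -1.17 (SE 0.09) for ND1, -0.97 (SE 0.10) for ND4 and -0.45 (SE 0.10) for ND5. Adjusted p-values from edgeR were 1.63e-07, 2.69e-06 and 0.00142. Without H28O16.1 replicate 3, the ND5 value was -0.30 (edgeR adjusted p = 2.27e-06).

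The scarce complex I mRNAs had wider errors. ND2 (WBGene00010961, 3389 to 4269) stood at 3.80, 3.85 and 3.64 CPM in L4440, at 3.11, 4.05 and 3.42 in B0395.3 and at 2.43, 2.32 and 1.83 in H28O16.1. ND6 (WBGene00010957, 113 to 549) stood at 1.57, 1.63 and 1.67 CPM, at 1.196, 1.399 and 1.38, and at 1.202, 1.19 and 0.734. Both fell in H28O16.1, ND2 by 0.78 (SE 0.14, edgeR adjusted p = 0.00029) and ND6 by 0.65 (SE 0.19, adjusted p = 0.00895) on the log2 scale. ND3 (WBGene00010966, 11356 to 11691) stood at 1.32, 0.989 and 1.21 CPM in L4440, at 0.933, 0.828 and 0.703 in B0395.3 and at 1.07, 1.04 and 0.758 in H28O16.1. The L4440 and H28O16.1 libraries of ND3 overlapped, and its difference of -0.31 (95% interval -0.73 to 0.12) did not pass the test (edgeR adjusted p = 0.202). ND4L (WBGene00010958, 549 to 783) had 6, 7 and 5 counts in L4440, 7, 5 and 3 in B0395.3 and 7, 7 and 8 in H28O16.1, under the filter on low counts. With no such filter its difference from L4440 in H28O16.1 was 0.33 (SE 0.51, edgeR adjusted p = 0.688).

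The rRNAs went the other way. The s-rRNA gene (WBGene00014454, 898 to 1593, 696 bases) stood at 58.96, 57.6 and 57.8 CPM in L4440, at 45.3, 46.9 and 47.2 in B0395.3 and at 102, 88.98 and 66.0 in H28O16.1. The l-rRNA gene (WBGene00014472, 10403 to 11354, 952 bases) stood at 23.4, 23.2 and 22.7 CPM, at 24.3, 21.2 and 23.5, and at 66.5, 63.6 and 42.8. For both, the lowest H28O16.1 library was above every library of the other groups. In H28O16.1 the s-rRNA rose by 0.56 (SE 0.11, edgeR adjusted p = 0.000684) and the l-rRNA by 1.32 (SE 0.13, adjusted p = 1.34e-06) on the log2 scale, to 147% and 249% of the L4440 mean.

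The balance between the rRNAs also differed by group. The l-rRNA had 0.396, 0.403 and 0.393 counts for each s-rRNA count in L4440, 0.536, 0.452 and 0.497 in B0395.3 and 0.652, 0.715 and 0.648 in H28O16.1. The groups did not overlap. An exact test of 3 libraries against 3 could not go below p = 0.1, and none was run on this ratio.

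Nuclear-encoded rRNA took 0.0789%, 0.0944% and 0.0804% of the counts in L4440, 0.216%, 0.199% and 0.287% in B0395.3 and 0.273%, 0.0919% and 0.306% in H28O16.1. All B0395.3 libraries and H28O16.1 replicates 1 and 3 lay above the L4440 libraries on this share, and H28O16.1 replicate 2 lay within their range. What part nuclear rRNA carry-over had in the MtDNA rRNA values was not tested.

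The 22 tRNA genes had very few counts in these libraries. They held 5 counts over the L4440 libraries, 7 over B0395.3 and 25 over H28O16.1, spread over 5, 6 and 7 genes, and the highest count of a gene in a library was 4. In all, 11 of the 22 genes had any count. WBGene00014459, at 3307 to 3360 between ATP6 and ND2, had 0 counts in the L4440 and B0395.3 libraries and 4, 2 and 2 in H28O16.1, and was named after its values were seen. With no filter on low counts it was the one tRNA gene called, as higher in H28O16.1 (edgeR adjusted p = 0.0183). DESeq2 did not call it (unadjusted p = 0.0715, with no adjusted p given), and the edgeR call rests on these few counts. Levels and changes of single tRNAs were otherwise not detectable in these libraries.

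**Figure D3:**
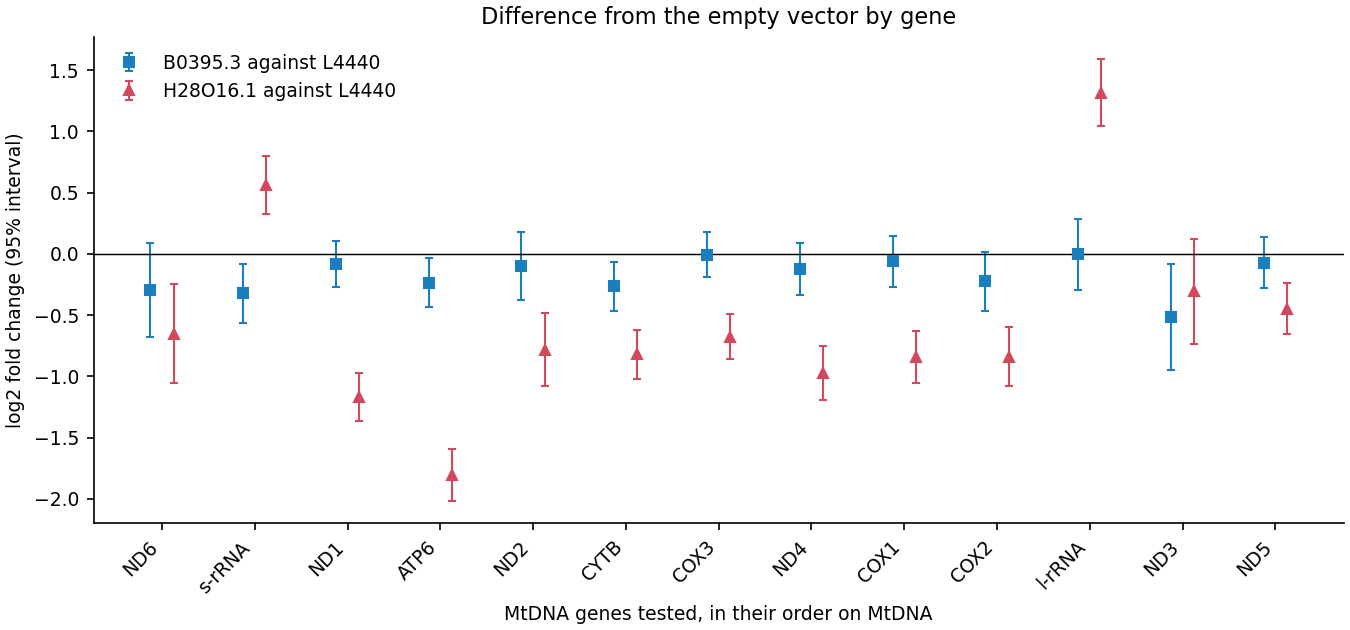
Log2 fold change with its 95% interval for the 13 tested MtDNA genes, in their order on MtDNA, for each RNAi group against L4440. H28O16.1 values run from -1.81 (ATP6) to 1.32 (l-rRNA), and B0395.3 values lie between -0.51 (ND3) and -0.01.

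Position on MtDNA was set beside these values after they were seen. The largest falls in H28O16.1 were in ATP6 and ND1, which overlap by 2 bases, at -1.81 and -1.17. The smallest were in ND3 (-0.31, not called) and ND5 (-0.45), which overlap by 1 base and follow the l-rRNA gene, which rose, across a gap of 1 base. ND1 is separated from the s-rRNA gene, which also rose, by 3 tRNA genes. COX2, on the other side of the l-rRNA gene across a tRNA gene, fell by more than these genes (-0.84). On the other side of the s-rRNA gene lie ND4L, not tested, and ND6 (-0.65), with tRNA genes between. No relation of the changes to position was tested. Most neighbours on MtDNA lie within a base of each other, and no source used here says how reads across such borders were counted.

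The make-up of the MtDNA mRNA pool does not rest on the scaling to nuclear genes. ATP6 made up 9.53% ± 0.318 of MtDNA mRNA counts in L4440, 8.77% ± 0.0709 in B0395.3 and 4.99% ± 0.0780 in H28O16.1 (SD, n = 3). ND1 made up 3.63% ± 0.0980, 3.71% ± 0.0463 and 2.96% ± 0.0132 in the same order. ND5 made up 3.97% ± 0.125, 4.10% ± 0.174 and 5.34% ± 0.0692, and COX1 35.4% ± 1.23, 36.8% ± 0.471 and 36.1% ± 0.448. ATP6 and ND1 had a smaller part of the pool in H28O16.1 and ND5 a larger one, and COX1 libraries of L4440 and H28O16.1 overlapped. Shares depend on gene length: of counts per length, ATP6 took 15.8%, 14.6% and 8.50% in the same order, ND5 2.50%, 2.61% and 3.46%, and COX1 21.97%, 23.1% and 23.1%.

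Each tested mRNA was compared with the summed other MtDNA mRNAs, as a log2 ratio. In H28O16.1 against L4440, 3 were lower without overlap, namely ATP6 at -1.004, ND1 at -0.30 and ND4 at -0.11. Higher without overlap were 6, namely ND3 at 0.59, ND5 at 0.45, COX3 at 0.25, ND6 at 0.22, ND2 at 0.10 and CYTB at 0.06. The sum that each of these was set against held ATP6, which went from 9.53% to 4.99% of the MtDNA mRNA counts. A smaller ATP6 part by itself raises the ratios of the other genes. The ratios were not computed with ATP6 left out, so its part in the small values was not tested. COX1 (0.05, p = 0.5) and COX2 (0.03, p = 0.6) overlapped in the exact two-sided permutation test. For the 9 others its p was 0.1, the smallest that 3 libraries against 3 allow, so none could pass 0.05.

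**Figure D4:**
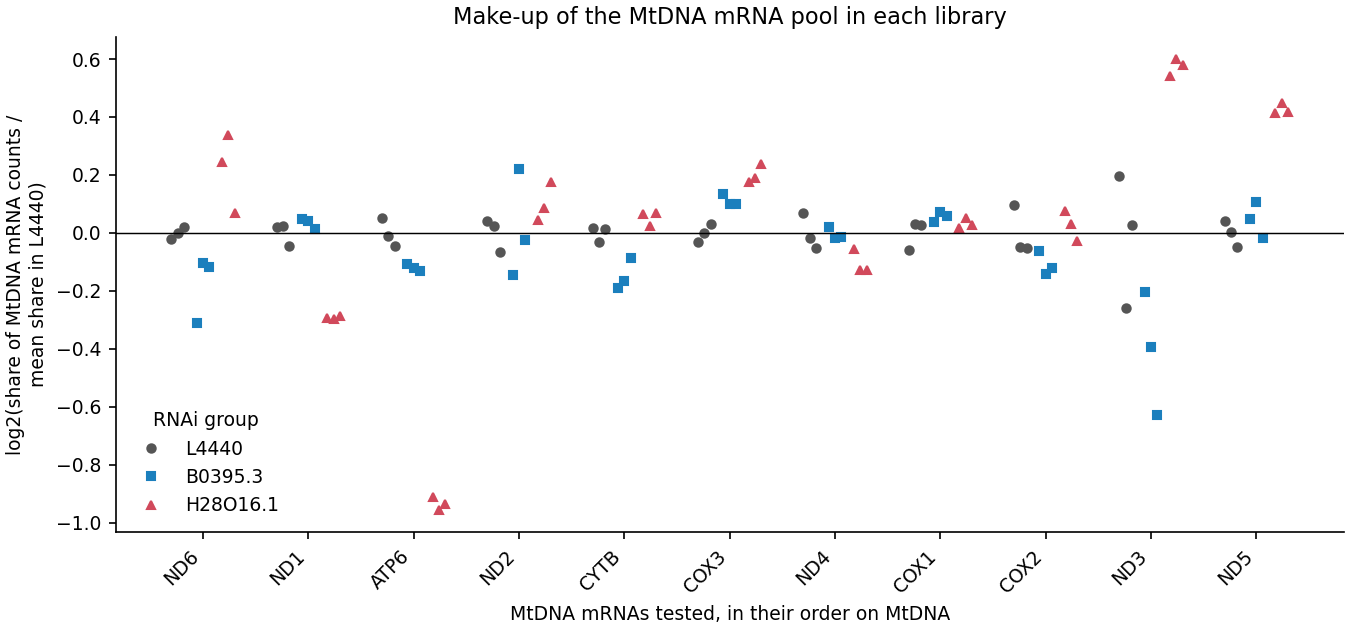
Log2 of each tested mRNA's share of MtDNA mRNA counts in a library over its mean share in L4440, for all 9 libraries, in the order of the genes on MtDNA. ATP6 and ND1 lie lowest in the H28O16.1 libraries and ND3 and ND5 highest, with replicates 1 to 3 close together.

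Levels per kilobase in H28O16.1 followed a partly different order. COX3 (914 ± 151 CPM per kilobase, SD, n = 3), COX1 (813 ± 150) and COX2 (690 ± 150) led again, with overlapping libraries. CYTB at 440 ± 79.9 stood above ATP6 at 299 ± 57.3, where ATP6 had been above CYTB in L4440. The s-rRNA at 123 ± 26.1 overlapped ND1 at 122 ± 22.3, ND5 at 122 ± 22.95 and ND4 at 105 ± 21.7.

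B0395.3 RNAi against L4440 gave much smaller differences. Of the 11 mRNAs, 0 were called by edgeR, with 3 at an unadjusted p under 0.05, and 0 by DESeq2 or limma. The s-rRNA was called lower by edgeR (log2 fold change -0.32, SE 0.11, adjusted p = 0.049), but this call was lost in 14 of 18 alternatives, DESeq2 (adjusted p = 0.116) and limma (adjusted p = 0.0993 with a pseudocount of 0.1) among them. The l-rRNA stood at -0.01 (95% interval -0.29 to 0.28). All 11 mRNAs had a value below 0, with a median of -0.12 beside 0.0079 over all tested genes. Among all tested genes 14.6% were called lower and 12.6% higher. The libraries of 7 mRNAs (ND6, ND1, ATP6, CYTB, ND4, COX2 and ND3) lay below L4440 without overlap, beside 23.3% of all tested genes.

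CYTB came closest to a call among the mRNAs, at -0.26 (95% interval -0.47 to -0.06, edgeR adjusted p = 0.0511). ATP6 followed at -0.24 (-0.44 to -0.04, adjusted p = 0.0755), with ND3 level at -0.51 (-0.95 to -0.08, adjusted p = 0.0755). Next was COX2 at -0.23 (-0.46 to 0.01, adjusted p = 0.153). COX3 stood at -0.01 (-0.19 to 0.18), and its sign and that of COX1 and the l-rRNA changed with the scaling or the test used. The number of members called lower changed with the libraries in the fit, for a reason that was not tested. It was 3 without H28O16.1 replicate 1, 7 without H28O16.1 replicate 3, and 0 without any 1 of the other 7 libraries. It was 6 with only the groups compared in the fit and 5 with no filter on low counts. Over all genes, 3976 of 14622 were called in either direction in the main fit. Without H28O16.1 replicate 1 this was 4343 of 14916, and without H28O16.1 replicate 3 it was 5065 of 14868. Without any 1 of the other 7 libraries, 2943 to 3845 genes were called. With only the groups compared 5132 of 14284 were called, and with no filter 4190 of 24625.

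H28O16.1 against B0395.3 compares the effects of both RNAi constructs directly, since the shared L4440 libraries cancel. Of the 11 mRNAs 9 were lower in H28O16.1, and both rRNAs were higher, where 32.1% of all tested genes were called lower and 30.5% higher. ATP6 differed by -1.57 (SE 0.10, edgeR adjusted p = 1.37e-08), the s-rRNA by 0.88 and the l-rRNA by 1.32. The other called mRNAs lay between -1.08 for ND1 and -0.37 for ND5. ND6 at -0.36 (95% interval -0.77 to 0.06, adjusted p = 0.122) and ND3 at 0.21 (-0.24 to 0.66, adjusted p = 0.409) did not pass. The values against L4440 of both RNAi groups share the same control libraries and are given side by side only.

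Nuclear genes for the partner subunits of the same enzymes moved in both directions in H28O16.1 against L4440. Of 15 measured genes for ATP synthase subunits other than the target and for its inhibitors, 8 fell and 3 rose, beside 31.2% and 26.3% of all tested genes. The subunit genes asg-2 (-0.58), asb-2 (-0.37), asg-1 (-0.30) and atp-2 (-0.24) fell. Of 11 complex III genes 7 fell and 1 rose, with ucr-1, a core subunit, at -0.19 and ucr-2.2 at -0.31. Of 13 complex IV subunits and assembly factors 6 fell and 5 rose, with the assembly factors cox-15 at 0.51 and sco-1 at 0.38. Of 30 complex I genes 6 fell and 11 rose, with nduf-11 at 0.32 and gas-1, a core subunit, at -0.29. The list medians were -0.14, -0.18, -0.08 and 0.01 in the order given, beside -0.82 for the 11 MtDNA mRNAs.

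Genes for the upkeep and expression of MtDNA were called in both directions, where 26.3% of all tested genes were called higher and 31.2% lower. Of 6 measured genes of MtDNA replication and transcription 2 rose, tfbm-1 (0.50) and the mitochondrial RNA polymerase gene rpom-1 (0.26), and 1 fell, the MtDNA polymerase gene polg-1 (-0.20). The packaging factor gene hmg-5 stood at -0.04 (edgeR adjusted p = 0.452). Of 8 names listed for mitochondrial RNA processing, stability and decay, 4 matched a gene. All 4 were measured and 3 rose. These were hoe-1, which encodes the tRNA 3′-end processing enzyme RNase Z, at 0.52, mma-1, a relative of mammalian LRPPRC, at 0.40 and C08F8.2 at 0.19.

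For mitochondrial translation, 4 of 10 factors rose and 1 fell, with the elongation factor genes gfm-1 at 0.71 and tufm-2 at 0.38. Over all tested genes in H28O16.1 against L4440, 26.3% were called higher and 31.2% lower. Among 11 mitochondrial aminoacyl-tRNA synthetases, which charge the MtDNA-encoded tRNAs, 5 fell and 2 rose. The isoleucine, asparagine and aspartate enzymes iars-2 (-1.23), nars-2 (-0.97) and dars-2 (-0.65) fell, and the leucine enzyme lars-2 rose (0.24). In B0395.3 against L4440, 1 of 6, 0 of 4, 1 of 10 and 0 of 11 genes of these lists rose and 0 fell. In that comparison 12.6% of all tested genes were called higher and 14.6% lower. Of 19 genes of mitochondrial protein folding, import, proteolysis and stress response, a list that also holds the ubiquinone gene clk-1 and the glycolytic gene gpd-2, 6 rose and 6 fell in H28O16.1, with the import channel gene timm-23 at 0.88, atfs-1 at -0.32 and the chaperonin gene hsp-60 at -0.55.

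Markers of the cell types that whole hermaphrodites hold were read beside these results. Of all tested genes, 31.2% were called lower and 26.3% higher in H28O16.1 against L4440. The summed level of 26 germ line genes was 11777 to 11936 CPM in L4440 libraries, 11183 to 11453 CPM under B0395.3 RNAi and 9250 to 9828 CPM under H28O16.1 RNAi, and 13 of them fell and 6 rose in H28O16.1. That of 26 oocyte and early embryo genes was 21713 to 22613, 20326 to 21096 and 19578 to 20495 CPM, with 13 falling and 7 rising in H28O16.1. Sperm genes summed to 25.7 to 27.4, 22.4 to 24.001 and 27.1 to 29.4 CPM, with msd-1 at 0, and of 14 measured 10 fell and 1, spe-41, rose in H28O16.1 (by 1.96 on the log2 scale). The germ line and oocyte sums of all H28O16.1 libraries, and those of all B0395.3 libraries, lay below those of all L4440 libraries. In H28O16.1 against L4440 the list medians were -0.07 and -0.06 on the log2 scale, beside -0.0042 over all tested genes. The germ line genes ifet-1 (-0.81) and car-1 (-0.78) and the oocyte gene oma-2 (-0.77) were among those that fell. The germ line gene ego-1 was among those that rose (0.46).

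Body wall muscle genes summed to 2009 to 2305 CPM in L4440 libraries, 1570 to 1666 CPM under B0395.3 RNAi and 2053 to 2646 CPM under H28O16.1 RNAi. Intestinal genes summed to 46077 to 48449, 30757 to 32554 and 48012 to 53036 CPM. In H28O16.1 against L4440, 5 of 17 muscle genes rose and 1 fell, and 7 of 17 intestinal genes rose and 6 fell. Of 15 neuronal genes 3 rose and 2 fell, and of 15 epidermal genes 1 rose and 8 fell. Over all tested genes, 26.3% were called higher and 31.2% lower in this comparison. In B0395.3 against L4440, 12 of 17 muscle genes fell and 0 rose, and 11 of 17 intestinal genes fell and 3 rose. Of 26 germ line genes 4 fell and 2 rose, and of 26 oocyte and early embryo genes 9 fell and 1 rose. Of 14 sperm genes 4 fell and 0 rose, of 15 neuronal genes 0 fell and 2 rose, and of 15 epidermal genes 5 fell and 1 rose. Over all tested genes 14.6% were called lower and 12.6% higher. The part of any of these cell types in the MtDNA values was not tested.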

How the data were processed

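The deposited counts per gene are whole numbers with no normalization, made by the authors, with 1 column per library. Per the submitters' processing notes, featureCounts 1.4.6-p4, STAR 2.4.1d and bcl2fastq 1.8.4 were used with the genome build WBcel235; no source used here gives the annotation release or the counting settings. The libraries came from a TruSeq v2 kit, which works on poly(A) RNA without keeping the strand, per the labels' protocols.

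The count table was tested whole with edgeR 4.0.16 in R 4.3.3: TMM scaling, filterByExpr (minimum count 10, which kept 14622 genes and removed 32126), a quasi-likelihood fit over all 9 libraries, two-sided tests, and Benjamini-Hochberg adjustment with a threshold of 0.05. The fit's biological coefficient of variation equalled 4.64%. CPM use TMM library sizes, errors are SDs over 3 libraries, and intervals are 95% intervals of the fit. Replicate numbers follow the order of the records and pair nothing. Exact permutation tests used Python 3.11.15 and SciPy 1.17.1. The scripts were tested on simulated data. Alternatives used DESeq2 1.42.0, limma 3.58.1 on log2(RPKM + 1) and log2(RPKM + 0.1), other scalings and filters, and each library left out. RPKM was computed from the counts, and the authors' RPKM table was not used.

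MtDNA protein genes carry the symbol of the RefSeq gene they overlap most, and the rRNAs are named by length. The text names both RNAi targets, every protein and rRNA gene of MtDNA, and up to 4 genes with the smallest p of each list. Not every listed name matched a gene, so the lists are incomplete. Of 8 names for MtDNA replication and transcription 6 matched, of 18 for translation factors 10 and of 14 for aminoacyl-tRNA synthetases 11. The members and the gene lists were chosen with earlier results of these data known. The splicing gene asd-1, listed with ATP synthase in error, was removed after its value was seen.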

Additional observations from a re-analysis of the deposited data

How the results depend on the processing

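In H28O16.1 against L4440 the number of members called was 12 and stayed at 12 to 13 over 18 alternatives, with 10 lower in each, and the 12 genes kept their direction and call in each. Against B0395.3 it was 11 to 12, with 9 lower in each. In B0395.3 against L4440 the number was 1, and it was 0 with DESeq2, RLE scaling, library totals only, scaling without the MtDNA genes, a minimum count of 50 and limma with either pseudocount. It was 5 with no filter on low counts, 6 with only the 2 groups compared, and 0 to 7 with 1 library left out. Over all genes tested, the number called in this comparison was 3976 in the main fit and 2943 to 5132 over the alternatives. The s-rRNA adjusted p ran from 6.24e-10 to 0.129. The cause was not tested.

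Small B0395.3 log2 fold changes turned above 0. COX3 was 0.00176 with RLE scaling, 0.0521 with library totals only, 0.0528 with limma at either pseudocount and, with 1 library left out, -0.0347 to 0.021 (highest without L4440 replicate 3). COX1 was 0.000128 and 0.000129 with limma at a pseudocount of 1 and 0.1. The l-rRNA was 0.00511 with RLE scaling, 0.0562 with library totals only, 0.0493 and 0.0511 with limma at a pseudocount of 1 and 0.1, 0.00517 without L4440 replicate 1 and, over all libraries left out, -0.0465 to 0.0508 (highest without B0395.3 replicate 2). In H28O16.1 against L4440, ATP6 ran from -1.93 to -1.66 and the l-rRNA from 1.198 to 1.496. The 3 libraries per group and the few counts of ND4L and the tRNAs limit precision. No paired analysis was possible because the replicate numbers come from the order of the records.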
